A study of Sus scrofa with 8 samples.

Results

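The S100 proteins are small calcium-binding proteins of vertebrates, built from EF-hand loops and working mostly as dimers. Inside cells most of them bind target proteins when calcium rises. Targets of the family include annexins, cytoskeletal proteins and ion channels. Some are also released, and S100A8, S100A9 and S100A12 are known as alarm signals of neutrophils and monocytes. Members were taken by symbol: every probe set whose only gene symbol in the platform annotation is S100A1, S100A2, S100A4, S100A6, S100A8, S100A9, S100A10, S100A11 or S100A12. This gave 9 probe sets of 8 genes, out of 24123 probe sets on the array. S100A6 has 2 probe sets, whose annotation lists that symbol under 2 gene records. S100A2 was not analysed, because no probe set carries its symbol. RefSeq's pig assembly Sscrofa11.1 places the 9 genes on one chromosome, with S100A8, S100A12 and S100A9 next to each other. S100A11 and S100A10 are also neighbours, and 33 genes lie between them and S100A9.

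The study asked whether the pig oviduct responds differently to X- and Y-bearing spermatozoa. Weaned Landrace × Large White crossbred sows with pre-ovulatory follicles received X-spermatozoa in one oviduct and Y-spermatozoa in the other, and the oviduct lining was scraped off after 24 h. The sperm were flow-sorted populations of high but incomplete purity, pooled over several boars, and both uterine horns were stapled to keep them apart. This gave 4 X-spermatozoa arrays (X1 to X4) and 4 Y-spermatozoa arrays (Y1 to Y4), where the number is taken as the sow. All 8 oviducts held spermatozoa, and oviducts without them were not analysed here. Which side of the tract received which sperm is not given for each array.

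Signals below are the deposited linear values of single probe sets, in the arbitrary units of the scanner software. They were not set against each other between probe sets, which differ in brightness for the same amount of RNA. Log2 differences are Y-spermatozoa minus X-spermatozoa after quantile normalization, tested with limma (two-sided) on 23999 probe sets that are not AFFX controls. Unless a block is named, their standard errors, intervals and p-values took no account of the sow, and neither did the permutation tests. The background level was the 95th percentile of 64 reporter probe sets for sequences that pigs do not carry, and it was 8.40 to 12.5 on the 8 arrays (mean 10.7). Every array had its highest correlation with the array of the same number, in 8 of 8 cases. Hybridisation controls (27 probe sets, mean log2 signal) averaged 9.73 ± 0.07 (SD, n = 4) on the X-spermatozoa arrays. On the Y-spermatozoa arrays they averaged 9.94 ± 0.10 (SD, n = 4; exact permutation test, two-sided, p = 0.0571). The deposited signals of 8 secretory epithelium markers of the oviduct, OVGP1 and EPCAM among them, summed to 14711 to 17488 on the X-spermatozoa arrays and to 17713 to 18440 on the Y-spermatozoa arrays. These sums did not overlap, but without OVGP1, the brightest of the 8, they did (7834.5 to 9019 and 8691 to 10402.5). After normalization 0 of the 8 genes passed an unadjusted p of 0.05 (median log2 difference 0.09, and 0.02 for OVGP1). Quantile normalization sets the brightest probe sets by their rank. OVGP1 had a normalized log2 value of 13.07 on both X3 and Y3, at signals of 7736 and 9035. Its 0.02 therefore cannot be set against the deposited sums. The part of the secretory markers in the S100 signals was not tested. The hybridisation controls were also entered as a covariate, and the values this moved are given below. By array they ran from 9.65 to 9.82 with X-spermatozoa and from 9.82 to 10.06 with Y-spermatozoa. The covariate thus largely follows sperm type, and fits with it cannot tell the controls and sperm type apart.

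No S100 gene differed detectably between the sperm groups. In limma, 0 of the 9 had an unadjusted p under 0.05, where 3.56% of all probe sets did (1.62% higher and 1.94% lower with Y-spermatozoa). After Benjamini-Hochberg adjustment 0 passed, as did 0% of all probe sets, and every adjusted p was 1. With the sow as a fixed block both counts were again 0, beside 5.09% and 0% of all probe sets. With the sow as a random block 2 passed before adjustment, S100A4 and S100A12, beside 1459 of the 23999 probe sets, and 0 after it. S100A1, S100A4, S100A6, S100A10 and S100A11 (6 probe sets) were above background on every array, and 0 of these 6 passed where 2.56% of the probe sets above background did. S100A8, S100A9 and S100A12 (3 probe sets) had means below background. The log2 difference was above 0 for 8 probe sets and below 0 for 1, with a median of 0.20 over the 9 and of 0.00 over all probe sets. Both groups overlapped for each of the 9, whereas 2.07% of all probe sets had no overlap. S100A4 was the 1 probe set with the same direction in all 4 sows after normalization (13.2% of all probe sets, of which 6.44% were higher and 6.71% lower).

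**Figure D1:**
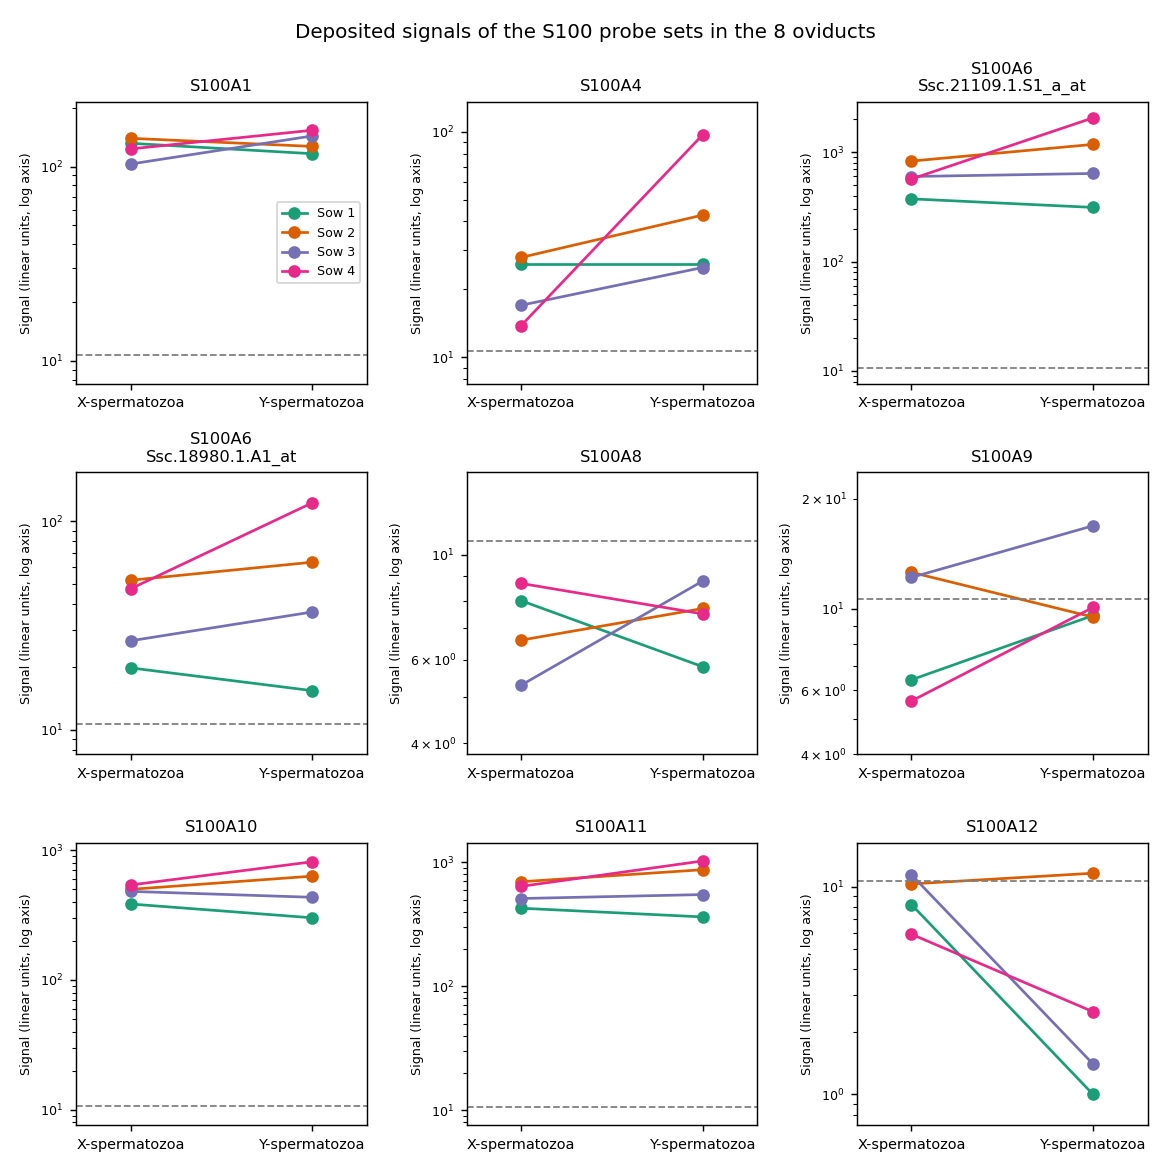
Deposited signal (vertical axes, linear units on a log axis) of each S100 probe set in the X-spermatozoa and Y-spermatozoa oviducts. Points are single arrays, lines join arrays of the same sow, and a dashed line marks the mean background of 10.7; S100A6, S100A10 and S100A11 fall in sow 1 and rise most in sow 4, and S100A8 stays under the line on every array.

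S100A6, also called calcyclin, binds annexins and the calcyclin-binding protein CACYBP. The brighter of its probe sets (identifier ending in S1_a_at) had signals of 374 (X1), 829 (X2), 599 (X3) and 568 (X4) with X-spermatozoa. With Y-spermatozoa the signals were 313 (Y1), 1178 (Y2), 639 (Y3) and 2060 (Y4). Sow 1 had the lowest signal in both groups, Y4 stood above every other array, and the groups overlapped. The ratio of the Y- to the X-spermatozoa oviduct was 0.835 in sow 1, 1.42 in sow 2, 1.07 in sow 3 and 3.62 in sow 4. The group means were 593 ± 186 and 1047 ± 764 (SD, n = 4 each), and the exact permutation test gave p = 0.429. In limma the log2 difference was 0.50, with a standard error of 0.54, a 95% interval of -0.75 to 1.74 and an adjusted p = 1. With the sow as a fixed block the standard error was 0.36 (limma, unadjusted p = 0.235).

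The dimmer probe set of S100A6 (ending in A1_at) had signals of 19.8 (X1), 52.1 (X2), 26.7 (X3) and 47.4 (X4) against 15.4 (Y1), 63.6 (Y2), 36.7 (Y3) and 122.5 (Y4). As with the brighter one, Y1 was lowest and Y4 highest. Its log2 difference came to 0.47 with a standard error of 0.64 (exact permutation p = 0.543). With the sow as a fixed block the standard error was 0.30 (limma, unadjusted p = 0.182). Both probe sets are named for the same gene, so they are not separate evidence. The differences rested on Y4: without it they were 0.10 for the brighter and -0.0012 for the dimmer probe set. With the hybridisation controls as a covariate they were 1.18 (standard error 0.95) and 1.06 (standard error 1.16).

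S100A11, or calgizzarin, pairs with annexin A1 at membranes. Its signals were 426 (X1), 696 (X2), 510 (X3) and 639 (X4) with X-spermatozoa, and 362 (Y1), 871 (Y2), 549 (Y3) and 1024 (Y4) with Y-spermatozoa. Sow 1 was again lowest in both groups and Y4 highest, and the groups overlapped. The log2 difference of 0.20 had a standard error of 0.33 and a 95% interval of -0.58 to 0.97 (exact permutation p = 0.571), and it turned to -0.02 without Y4. With the hybridisation covariate it was 0.61 (standard error 0.59). With the sow as a fixed block, the difference of 0.20 had a standard error of 0.17 (limma, unadjusted p = 0.310).

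S100A10, also known as p11, forms a tetramer with annexin A2 and carries ion channels to the cell surface. With X-spermatozoa its signals were 386 (X1), 500.1 (X2), 482 (X3) and 540.3 (X4). With Y-spermatozoa they were 302 (Y1), 632 (Y2), 434 (Y3) and 816 (Y4). The Y-spermatozoa oviduct was lower in sows 1 and 3 and higher in sows 2 and 4. The log2 difference of 0.10 had a standard error of 0.30 and a 95% interval of -0.60 to 0.79 (exact permutation p = 0.771), and it turned to -0.12 without Y4. The covariate moved it to 0.57 (standard error 0.51). With the sow as a fixed block, the difference of 0.10 had a standard error of 0.19 (limma, unadjusted p = 0.639).

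**Figure D2:**
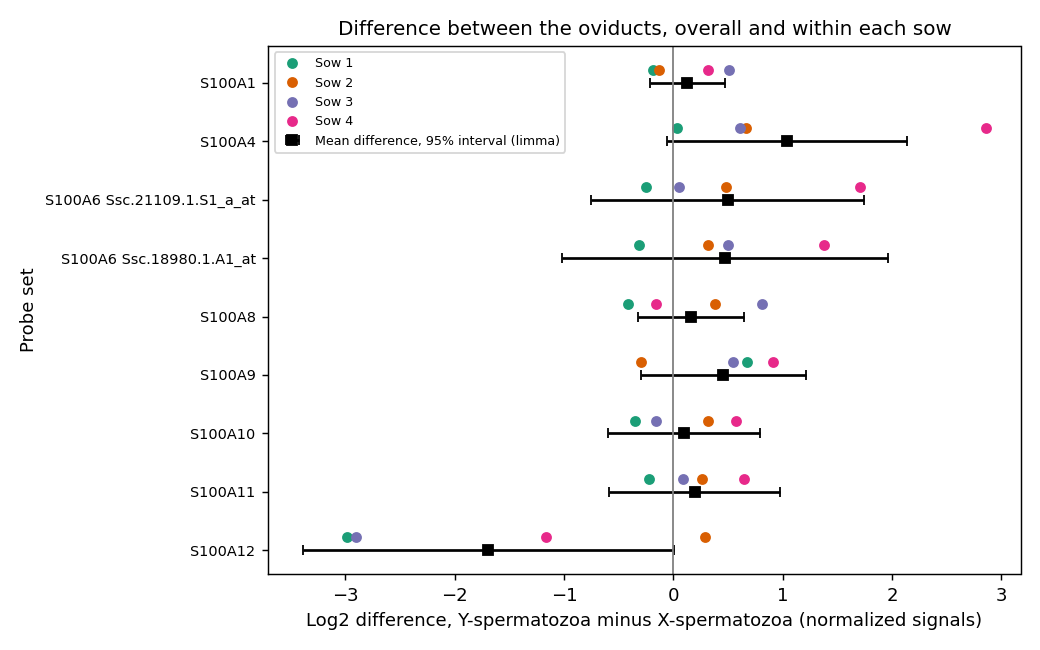
Y-spermatozoa minus X-spermatozoa on the log2 scale (horizontal axis, normalized signals) for each S100 probe set (vertical axis). Squares are mean differences with 95% limma intervals from the fit without the sow, and coloured points are the 4 sows. Every interval includes 0, and sow 4 lies furthest to the right for S100A4, S100A6, S100A10 and S100A11.

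S100A6, S100A10 and S100A11 rose and fell together over the 8 arrays, with Pearson r of 0.95 to 0.99 between pairs of their probe sets and Spearman rho of 0.83 to 1. The arrays share sows and one normalization, so these correlations are a description. In sow 1 the log2 differences were -0.25 and -0.32 for the S100A6 probe sets, -0.35 for S100A10 and -0.22 for S100A11. In sow 4 they were 1.71 and 1.38 for S100A6, 0.57 for S100A10 and 0.65 for S100A11.

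Their spread was wide for their brightness. The SD of log2 signals over the 8 arrays was 0.83 for the brighter S100A6 probe set, and 0.376% of the 797 probe sets within 0.5 log2 units of its level had a larger one. For S100A11 the SD was 0.49 (2.64% of 948 probe sets had a larger one) and for S100A10 it was 0.43 (3.61% of 1219). S100A4 had an SD of 0.88 (1.93% of 3208), while S100A1, with 0.19, lay in the middle of its range (52.9% of 3411).

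**Figure D3:**
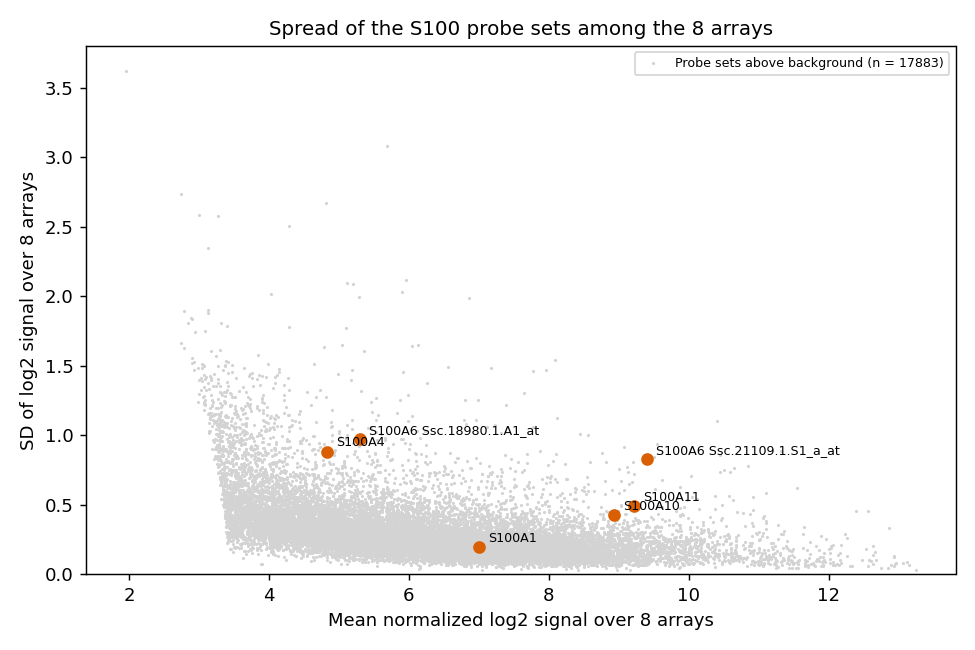
SD of the normalized log2 signal over the 8 arrays (vertical axis) against its mean (horizontal axis). Grey points are the 17883 probe sets whose mean signal is above background and orange points are the 6 S100 probe sets measured above it on every array; S100A6 lies near the top for its level (SD 0.83 and 0.97) and S100A1 in the bulk (SD 0.19).

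Differences between sows were tested in limma with sow and sperm type as terms (F test over the 4 sows). An unadjusted p of 0.05 was passed by 2 of the 9 S100 probe sets, beside 14.2% of all probe sets (14.3% of those above background), and 0 passed after adjustment, as did 0% of all probe sets. These were the dimmer S100A6 probe set (adjusted p = 0.289), whose normalized sow means spanned 4.35-fold, and S100A11 (adjusted p = 0.312), whose sow means spanned 2.04-fold. The brighter S100A6 probe set spanned 2.99-fold (adjusted p = 0.406) and S100A10 spanned 1.92-fold (adjusted p = 0.392). With dim probe sets left out, 11999 were tested and 7.46% of these passed adjustment, among them the dimmer S100A6 probe set (adjusted p = 0.0267) and S100A11 (adjusted p = 0.0466). The unadjusted threshold was then passed by 4 of the 5 S100 probe sets left, S100A10 and both of S100A6 included, beside 29.4% of all those tested. These 4 rose and fell together over the arrays, so they are not separate evidence. With a variance trend 4 of the 9 passed the unadjusted threshold, beside 19.5% of all probe sets. Without sow 1 the count was 0 of 9, and S100A11 did not pass without sow 2 either. Sow and the handling of each animal's tissue cannot be told apart.

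Stroma and smooth muscle markers correlated with these genes over the arrays, though not in every sow. Their summed signal (9 of 11 genes measured, 9 above background) was 6090 (X1), 9925 (X2), 8904 (X3) and 6725 (X4) with X-spermatozoa, and 4301 (Y1), 10272 (Y2), 5231 (Y3) and 10126 (Y4) with Y-spermatozoa. Over the 8 arrays its log2 correlated with the brighter S100A6 probe set by r = 0.81, with S100A10 by 0.83 and with S100A11 by 0.82. The summed endothelium markers (7 of 7 measured, 5 above background, sums of 254 to 374 and 224 to 446) correlated by 0.82, 0.72 and 0.82. In sow 3 the stroma sum and S100A10 were lower with Y-spermatozoa, while S100A6 and S100A11 were higher. Of the 9 stroma genes 7 had a log2 difference below 0 (median -0.09). Gene by gene, r to the brighter S100A6 probe set ran from 0.25 for COL1A2 to 0.81 for DCN, and without VIM, the brightest of the 9, the sum had r of 0.79, 0.82 and 0.79 to the same S100 probe sets. For the secretory epithelium markers r was 0.38, 0.10 and 0.26, and 0.63, 0.54 and 0.64 without OVGP1. The part of these cell types in the S100 signals was not tested. In scraped tissue, fewer cells of a type and less RNA per cell cannot be told apart.

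**Figure D4:**
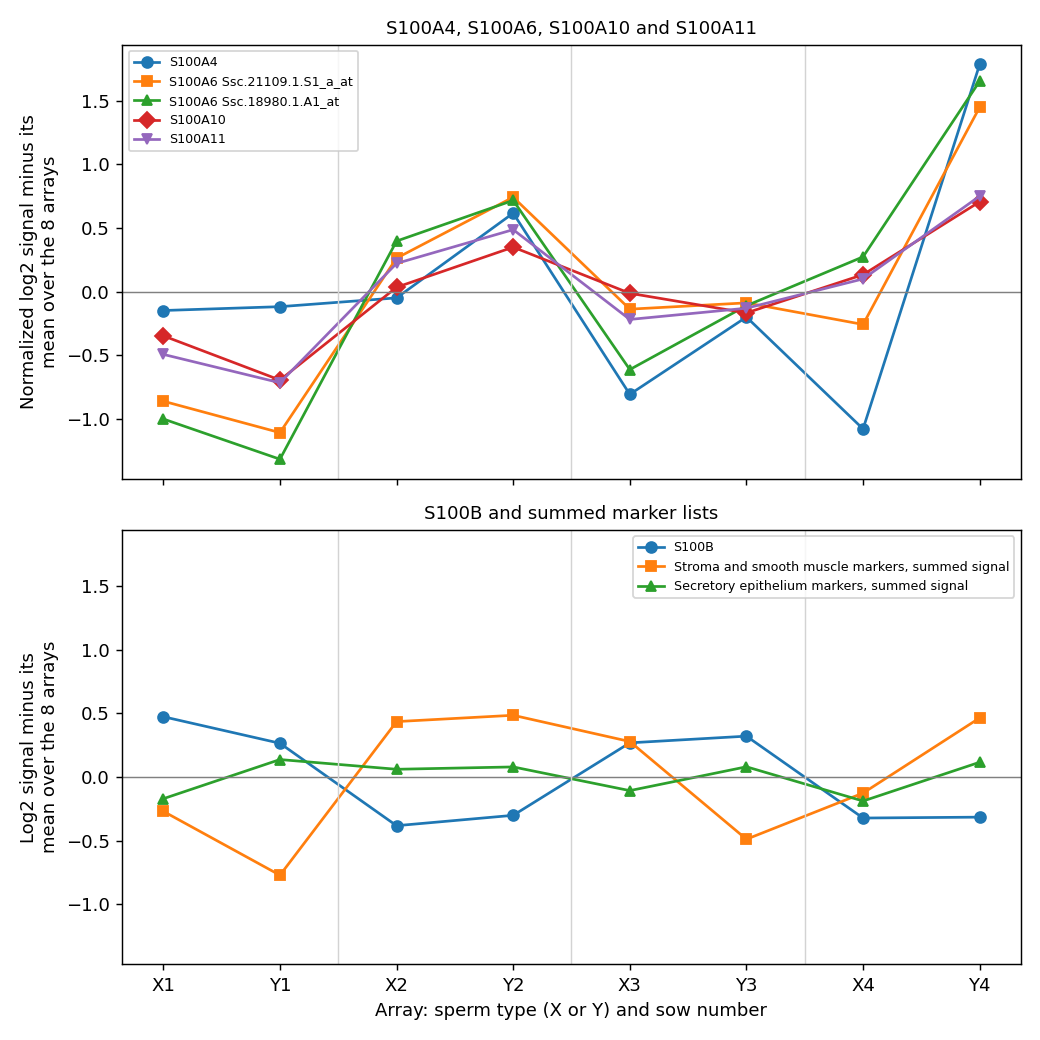
Log2 signal minus its mean over the 8 arrays (vertical axes), by array in order of sow (horizontal axis, X or Y and the sow number). The upper panel shows S100A4, S100A6, S100A10 and S100A11, all highest in Y4 and, apart from S100A4, lowest in Y1; the lower panel shows S100B (r = -0.83 to S100A11) and the summed stroma and secretory epithelium markers (r = 0.82 and 0.26 to S100A11).

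Among 8252 probe sets of genes outside the S100 members, with 1 symbol and a mean signal above background, those most like the brighter S100A6 probe set over the 8 arrays were IFI30, TIMP1 and CTSB. IFI30, a thiol reductase of lysosomes, had r = 0.97 with signals of 64.4 to 166. TIMP1, an inhibitor of matrix metalloproteinases, had r = 0.97 with signals of 566 to 2489. CTSB, a cysteine protease of lysosomes, had r = 0.96 and a Spearman rho of 1, with signals of 908 to 1151. These genes had the highest r in a search through 8252 probe sets over only 8 arrays. The same search gave r of 0.93 to 0.97 for S100A8, S100A9 and S100A12, whose signals were at or near background. An r of this height can therefore come from the search alone, and no link to S100A6 is read from it.

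Binding partners of these proteins did not all follow them. ANXA2, the partner of S100A10, had signals of 1860 (X1), 2169 (X2), 2033 (X3) and 2172 (X4) against 1968 (Y1), 2418 (Y2), 2266 (Y3) and 2780 (Y4). The Y-spermatozoa oviduct had the higher signal in each of the 4 sows, but the groups overlapped. Its log2 difference was 0.11, with a standard error of 0.11 (exact permutation p = 0.2), and r to S100A10 was 0.66 over 8 arrays. ANXA1, the partner of S100A11, had signals of 1486 to 2014 with X-spermatozoa and 1615 to 2092 with Y-spermatozoa, and r = -0.33 to S100A11. CACYBP, a ubiquitin ligase adaptor, had signals of 342 to 425 and 288 to 449 in the same order of groups, and r = 0.81 to S100A6. The log2 differences were 0.01 for ANXA1 and -0.02 for CACYBP, which turned to 0.015 with arrays centred on their median.

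S100A4, or metastasin, binds non-muscle myosin and is found in fibroblasts and migrating cells. Its signals were 26.0 (X1), 27.7 (X2), 17.0 (X3) and 13.8 (X4) with X-spermatozoa, and 26.0 (Y1), 42.7 (Y2), 25.0 (Y3) and 96.9 (Y4) with Y-spermatozoa. Sow 4 held both the lowest and the highest signal, and Y1 equalled X1. The ratio of the oviducts was 7.02 in sow 4, 1.54 in sow 2 and 1.47 in sow 3. The log2 difference was 1.04, with a standard error of 0.47 and a 95% interval of -0.06 to 2.14 (exact permutation p = 0.143). In limma it had an unadjusted p = 0.0599 and an adjusted p = 1. With the sow as a fixed block the standard error was 0.52 (limma, unadjusted p = 0.108). Without Y4 the log2 difference was 0.62. Without Y1 it was 1.25 and without Y3 1.28, and in these fits alone among those leaving out 1 array it passed the unadjusted threshold. S100A4 shared the peak on Y4 with S100A6 (r = 0.72 to the brighter probe set and 0.65 to the dimmer one) but not the low signal of sow 1.

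S100A1, a regulator of calcium handling in muscle, had the smallest spread of the 6 probe sets above background. Its signals were 132 (X1), 139.7 (X2), 103 (X3) and 123 (X4) against 116 (Y1), 127 (Y2), 144 (Y3) and 154 (Y4). The Y-spermatozoa oviduct was lower in sows 1 and 2 and higher in sows 3 and 4. The log2 difference of 0.13 had a standard error of 0.15 (exact permutation p = 0.400), and its 95% interval corresponds to 0.860- to 1.39-fold. It rested on sow 3: it was 0.033 without X3 and 0.0020 without both arrays of that sow in the blocked fit. With every sow kept, the blocked fit had a standard error of 0.16 for the difference of 0.13.

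S100A8 and S100A9 form calprotectin, which binds zinc and manganese and is a main cytosolic protein of neutrophils, and S100A12 is a ligand of the receptor AGER from the same cells. S100A8 was below background on 8 of 8 arrays, at signals of 5.3 to 8.7 with X-spermatozoa and 5.8 to 8.8 with Y-spermatozoa. No fold change is given for it (exact permutation p = 0.514). S100A9 was below background on 4 of 8 arrays, at 6.4 (X1), 12.6 (X2), 12.2 (X3) and 5.6 (X4) against 9.6 (Y1), 9.5 (Y2), 16.9 (Y3) and 10.1 (Y4). Sow 2 had the lower signal with Y-spermatozoa and the other 3 sows the higher one, and the groups overlapped (exact permutation p = 0.286). With all 4 sows the blocked limma fit gave S100A9 an unadjusted p of 0.110. Leaving out 1 sow in that fit gave 0.0094 to 0.303. The lowest came without sow 2, the only sow in the other direction, and is no support for a difference. No S100 probe set passed there after adjustment.

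S100A12 was below background on 7 of 8 arrays. Its signals were 8.2 (X1), 10.3 (X2), 11.4 (X3) and 5.9 (X4) with X-spermatozoa, and 1 (Y1), 11.6 (Y2), 1.4 (Y3) and 2.5 (Y4) with Y-spermatozoa. Y2 was the highest of the 8 and the other Y-spermatozoa arrays were the lowest. Both group means, 8.95 ± 2.43 and 4.13 ± 5.02 (SD, n = 4 each), lay below the mean background, so no fold change is given (exact permutation p = 0.143). In limma the unadjusted p was 0.0511 on all 8 arrays. S100A12 passed the unadjusted threshold in limma without Y2. Its direction turned with the hybridisation controls as a covariate, in a fit that cannot tell the controls and sperm type apart.

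Neutrophil markers were measured on the same arrays. Of 18 listed genes 7 were measured and 3 of these, LTF, NCF1 and NCF4, had a mean above background, while ELANE, MMP9, PGLYRP1 and ITGAM did not. Their summed signal was 725 to 1789 with X-spermatozoa and 728 to 1622 with Y-spermatozoa, most of it from LTF (642 to 1714 and 669 to 1546), lactoferrin, which epithelia of the female tract also make. Of the monocyte and macrophage markers 9 of 14 were measured and 7 were above background, with sums of 217 to 365 and 265 to 462. The median log2 difference was -0.31 for the 7 neutrophil genes, of which 3 were higher and 4 lower with Y-spermatozoa. It was 0.26 for the 9 monocyte and macrophage genes, of which 8 were higher and 1 lower, and 0.00 over all probe sets. The -0.31 is the value of NCF1, which rested on sow 2 (-1.58, against 0.08 to 0.17 in sows 1, 3 and 4). LTF and NCF4, also above background, had 0.09 and 0.49. The 8 higher genes include FCGR1A and CD14, whose means were below background. Neither median is therefore read as a difference between the sperm groups. AGER was below background on every array (signals of 0.5 to 7.3). A dimmer AGER probe set (0.4 to 4.8), also below it on every array, was lower with Y-spermatozoa (limma, unadjusted p = 0.046). It did not pass after adjustment. TLR4, the receptor that calprotectin binds, had signals of 154 to 219 with X-spermatozoa and 138 to 252 with Y-spermatozoa, and a log2 difference of 0.06 with a standard error of 0.21, which turned to -0.34 with the hybridisation covariate.

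S100A8 was below background on 8 arrays, S100A12 on 7 and S100A9 on 4, so likeness to them is likeness to signals at or near background, and nothing is read from it. The genes outside the S100 members with the highest r were DGCR14, MUT and RAD51AP1 for S100A8 (r of 0.95, 0.94 and 0.93), RSPH14, AZGP1 and ATP9A for S100A9 (r of 0.96, 0.93 and 0.93), and PMF1, MFF and NR2F2 for S100A12 (r of 0.97, 0.96 and 0.95).

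Taking the brightest probe set of each gene, 17 of the 25 listed binding partners and receptors were measured. Of these 0 rose and 0 fell at the unadjusted threshold in limma (median log2 difference 0.02). Of 42 other EF-hand proteins 26 were measured, also with 0 and 0 (median 0.04), among them the calmodulin genes CALM2 and CALM3 and the calpain genes CAPN1, CAPN2 and CAPNS1. Of 18 genes of acute inflammation 16 were measured, 12 with a mean above background, with 0 and 0 (median 0.03). IL1B (31.5 to 56.5), STAT3, CEBPB, NFKBIA, SAA2, CXCL2, ICAM1, SOD2 and IL18 were above background on 8 of 8 arrays. The 4 genes with means below it were IL6 (below on 5 arrays), TNF (5), CXCL8 (6) and PTGS2 (8). Among the cell type markers 1 gene passed without adjustment, FCGR1A, which was below background on all 8 arrays. With the sow as a fixed block 4 of the 116 measured list genes passed the unadjusted threshold, a smaller share than the 5.09% of all probe sets. These were ALAS2, FCGR1A, NCF4 and VWF, each higher with Y-spermatozoa in 4 of 4 sows (6.44% of all probe sets were). A low p in the blocked fit favours genes with the same direction in every sow, so the shared direction is not separate evidence. VWF, the von Willebrand factor of endothelium, was the only one of the 4 genes above background on every array. Its signals were 34.2 to 67.7 with X-spermatozoa and 38.6 to 89.2 with Y-spermatozoa. None passed after adjustment over all probe sets (adjusted p = 0.895 for each in limma with the block).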

How the data were processed

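One Affymetrix Porcine Genome array was run per oviduct, 4 per group. The authors deposited linear intensity values, with a single signal for each probe set, made by Microarray Suite (MAS5 5.1 in the submitters' processing notes). The 2% trimmed mean was 100.02 on every array. The study's methods name RMA instead, which needs probe-level data that were not used here. Signals were quantile normalized, floored at 1 and put on the log2 scale, and 23999 probe sets (124 AFFX controls left out) were tested with limma 3.58.1 in R 4.3.3 without a block. Benjamini-Hochberg adjustment ran over all of them. Figures used Python 3.11.15 and matplotlib 3.10.9.

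The labels state that both oviducts came from the same sow but do not say that the replicate number is the sow. The numbers were taken to pair the arrays because same-numbered arrays deviated together (r of 0.19, 0.18, 0.14 and 0.13 for numbers 1 to 4). Exact permutation tests ran over all 70 splits of 8 arrays, two-sided, with a smallest possible p of 0.0286. Gene symbols come from the platform annotation, and a symbol repeated for several gene records counted as 1. Where a list gene had several probe sets, the one with the highest mean signal was used. All S100 probe sets were named, with ANXA1, ANXA2, CACYBP, AGER and TLR4, up to 4 genes per list past the unadjusted threshold, and the 3 genes outside the members most like S100A6, S100A8, S100A9 and S100A12. Other names were chosen after their values were seen. The members and gene lists were chosen with earlier results of these data known. Alternatives were the sow as a fixed or random block, 2 other scalings, a pseudocount or floor of 16, a filter on dim probe sets, AFFX controls kept, an eBayes trend, array weights, a test without moderation of the variances, the hybridisation controls as a covariate, all probe sets of a gene, and leaving out each array or sow. Marker sums without their brightest gene were added after seeing the data. The test was tried on simulated data. The number of arrays limits the precision.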

Additional observations from a re-analysis of the deposited data

Results flagged for a closer look

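Of 18 groups of 4 arrays (9 S100 probe sets in both sperm groups), 2 held an array far from the other 3 by Dixon's criterion, which chance alone reaches in about 1 of 20 groups. S100A9 had a signal of 16.9 on Y3, against 9.5 to 10.1 on the other Y-spermatozoa arrays. S100A12 had a signal of 11.6 on Y2, against 1 to 2.5 on the others. Both genes were at or near background.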

How the results depend on the processing

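With adjustment over all probe sets, 0 S100 probe sets passed between the sperm groups under each alternative run. At the unadjusted threshold the count, 0 as reported, stayed 0 with the sow as a fixed replicate block (paired arrays) and became 2 with a random replicate block (S100A4 and S100A12, beside 1459 of all 23999 probe sets) and 2 with a variance trend (both again, beside 821). It was 1 with the deposited scaling (S100A12, beside 902), median centring (S100A12, beside 864), a pseudocount of 16 (S100A4, beside 814) and array weights (S100A4, beside 862). All probe sets gave 855 as reported. It was 0 to 1 without 1 array, and 0 to 2 without 1 sow in the blocked fit. A test without moderation of the variances called 0 S100 probe sets, beside 870 of all. The fixed lists, with 1 gene as reported, gave 4 with the replicate block, 2 with the random block, both other scalings, the trend or every probe set of a gene, and 0 with a floor of 16 or the hybridisation covariate. Leaving out 1 array gave 1 to 4 genes, and 1 sow in the blocked fit 3 to 5. Between sows the 2 S100 probe sets became 4 with a pseudocount of 16, a variance trend or dim probe sets left out (2 of these adjusted), and 0 to 3 without 1 sow. The hybridisation covariate turned S100A12 to 0.42, CACYBP to 0.23, AGER to -0.51 and TLR4 to -0.34, and raised the log2 difference of the S100A6 probe sets to 1.18 and 1.06, S100A11 to 0.61 and S100A10 to 0.57. AGER also turned to -0.047 with the deposited scaling, -0.014 with median centring and -0.025 with array weights, and CACYBP to 0.015 with median centring and 0.011 with array weights. Leaving out 1 array or 1 sow moved the log2 difference of the dimmer S100A6 probe set from -0.0012 to 0.99, S100A8 from -0.061 to 0.35, S100A10 from -0.12 to 0.34, S100A11 from -0.022 to 0.47, ANXA1 from -0.11 to 0.12, CACYBP from -0.10 to 0.12, AGER from -0.65 to 0.47, TLR4 from -0.082 to 0.20 and S100A1 from 0.0020 to 0.23. Values of S100A8, S100A12 and AGER are differences between signals below background, given for their sign, and are no fold changes. The hybridisation covariate largely follows sperm type, and fits with it cannot tell the controls and sperm type apart. The cause of these shifts was not tested. The number of arrays limits what could be detected, and S100A8, S100A9, S100A12 and AGER are limited by signals at or near background.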

Other observations

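Other S100 genes on the array were looked at after the values of the members were seen. S100B, known from glia and also from some epithelia, had signals of 304 (X1), 168 (X2), 264 (X3) and 173 (X4) with X-spermatozoa, and 263 (Y1), 177 (Y2), 274 (Y3) and 174 (Y4) with Y-spermatozoa. Both oviducts of sows 1 and 3 were above both oviducts of sows 2 and 4. Its log2 difference between the sperm groups was -0.02, and between sows it passed the unadjusted threshold, as did 14.2% of all probe sets, but not after adjustment (adjusted p = 0.240 in limma). Its profile ran against that of S100A11 (r = -0.83 over 8 arrays, Spearman rho -0.64). For the brighter and dimmer S100A6 probe sets r was -0.70 and -0.82, and rho was -0.43 and -0.64. These correlations are a description. S100A14 had signals of 74.1 to 107 with X-spermatozoa and 88.6 to 114 with Y-spermatozoa. S100G, the vitamin D-dependent calbindin, had signals of 20.4 to 30.6 and 19.4 to 32.1 on its brighter probe set.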
